A study of Mus musculus with 16 samples.

Results

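A set of 9 genes of central myelin and of the oligodendrocyte, the cell that makes it, was followed through lumbar spinal cord of SOD1G93A and wild-type mice at 40 and 80 days of age. The genes were *Mbp*, *Mog*, *Mag*, *Mobp*, *Cldn11*, *Mal*, *Aspa*, *Sox10* and *Olig2*, taken by name from the gene names on the array: 9 of 27962 names, carried by 18 of 41174 probes. They were chosen with earlier results of these data known. The mice were males of a mixed B6SJL background, and the SOD1G93A animals carry a mutant human SOD1 gene under its own promoter, active in most cell types, a model of amyotrophic lateral sclerosis in which both ages lie before symptoms. Controls were age-paired mice without the transgene. Each of the 4 groups (wild-type and SOD1G93A at 40 days, wild-type and SOD1G93A at 80 days) had 4 arrays, each labelled a biological replicate. Every array held Cy3-labeled cord RNA of 1 sample against a Cy5-labeled pool of neonatal heart, kidney and liver RNA, so each value below is a log2 ratio of cord to this pool unless another quantity is named. The pool was 1 RNA, made from both genotypes, and no dyes were swapped.

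Oligodendrocytes wrap axons of the central nervous system in a compacted, lipid-rich sheath that insulates them and speeds conduction. In the mouse, this wrapping runs fastest in the weeks after birth and goes on at a lower rate in young adults, while Schwann cells make the myelin of nerve roots and peripheral nerves. *Mbp* encodes myelin basic protein, which holds the inner faces of the membrane together, and *Mobp* a small basic protein of the same compartment. *Mag* and *Mog* encode adhesion and surface proteins of the inner and outermost layer. *Cldn11* encodes the claudin of the tight junctions between wraps, *Mal* a proteolipid of membrane traffic and *Aspa* the enzyme that splits N-acetylaspartate into aspartate and acetate, a source of carbon for myelin lipids. *Sox10* and *Olig2* encode transcription factors of the oligodendrocyte lineage.

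The probes are 60 bases long, and some that lie in coding sequence are printed here, since they show what these measurements read. No *Mbp* probe is printed, whether or not it lies in coding sequence. Coordinates are those of the array annotation (mouse build mm7), and letters run 5′ to 3′ as on the array. The *Mog* probe lies at chr17:35172002-35172061, minus strand, in the part that encodes the immunoglobulin-like domain. The *Aspa* probes lie at chr11:73387123-73387182 and, over exon junctions, at chr11:73395145-73401381, minus strand. The *Mobp* probe lies at chr9:119863783-119863842, plus strand, the *Mag* probe at chr7:27846799-27846858, minus strand, the *Sox10* probe at chr15:79239405-79239464, minus strand, and the *Olig2* probe at chr16:91276771-91276830, plus strand.
Mog A_52_P85040: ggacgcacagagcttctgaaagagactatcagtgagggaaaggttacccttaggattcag
Aspa A_51_P259975: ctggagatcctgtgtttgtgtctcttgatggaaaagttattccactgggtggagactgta
Aspa A_51_P259968: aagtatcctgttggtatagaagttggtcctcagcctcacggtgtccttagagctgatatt
Mobp A_51_P291224: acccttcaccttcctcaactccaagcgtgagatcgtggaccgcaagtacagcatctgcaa
Mag A_52_P375021: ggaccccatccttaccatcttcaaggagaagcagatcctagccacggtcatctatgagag
Sox10 A_52_P192625: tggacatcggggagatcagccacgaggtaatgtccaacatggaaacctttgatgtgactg
Olig2 A_51_P367451: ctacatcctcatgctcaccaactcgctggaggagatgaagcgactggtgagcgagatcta

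All but 2 of the 18 probes had a Cy3 signal well above background on all 16 arrays. The exceptions were the second probes of the transcription factors: *Sox10* A_52_P192625 was well above background on 12 arrays, and *Olig2* A_51_P367451 on 0, so the latter was not tested. Each gene is represented below by its brightest probe in Cy3, and other probes are named where they differ. The mean log2 ratio over the 16 arrays was above 0 for the brightest probe of every gene, from 2.59 for *Sox10* to 7.33 for *Mobp*. For *Mobp* the ratio ran from 7.00 to 7.73 among arrays, for *Cldn11* from 5.12 to 6.40 (mean 5.81), for *Mag* from 4.18 to 5.50 (mean 4.99) and for *Mbp* from 3.94 to 4.45 (mean 4.19). *Mog* had a mean of 3.61, *Mal* of 3.53, *Aspa* of 2.99 and *Olig2* of 2.91. These ratios place the genes on the cord side of the comparison and are a description, with no test and no order between genes. They depend on the scaling, since Cy5 signals were brighter in general: the *Mbp* probe, with means of 30374 units in Cy3 and 29729 in Cy5, has a ratio far above 0 only after normalization. Another *Mbp* probe stood apart: A_52_P604195, which the files assign to another *Mbp* transcript than the other *Mbp* probes, had a mean ratio of -0.21 with 376 units in Cy3 and 4583 in Cy5.

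Markers of cell types were looked at in the tissue. All 13 neuron, all 10 astrocyte and 6 of 7 motor neuron markers passed the filter on dim probes at 40 days. So did all 11 microglia, all 9 peripheral myelin, all 7 meningeal fibroblast and 5 of 8 skeletal muscle genes, and 21336 of 41174 probes in all. Passing the filter thus does not show that the tissue was cord alone. Lists of other cells differed between arrays of the same group. The median deviation of 11 microglia genes from their own means was 0.68 on replicate 3 of wild-type cord of 80 days and 1.01 on replicate 4 of SOD1G93A cord of 80 days. That of 9 peripheral myelin genes ran from -1.07 to 1.20 among the wild-type arrays of 40 days and from -0.92 to 0.045 among the SOD1G93A arrays of that age. That of 7 skeletal muscle genes was 2.73 on replicate 2 of SOD1G93A cord of 40 days and 1.40 on replicate 2 of SOD1G93A cord of 80 days. Among wild-type arrays it ran from -0.78 to 0.54 at 40 days and from -0.64 to 0.74 at 80 days. Each slide held 1 array of every group at a fixed position, so position on the slide and group cannot be told apart. In whole cord, fewer cells of a type and less RNA per cell cannot be told apart.

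**Figure D1:**
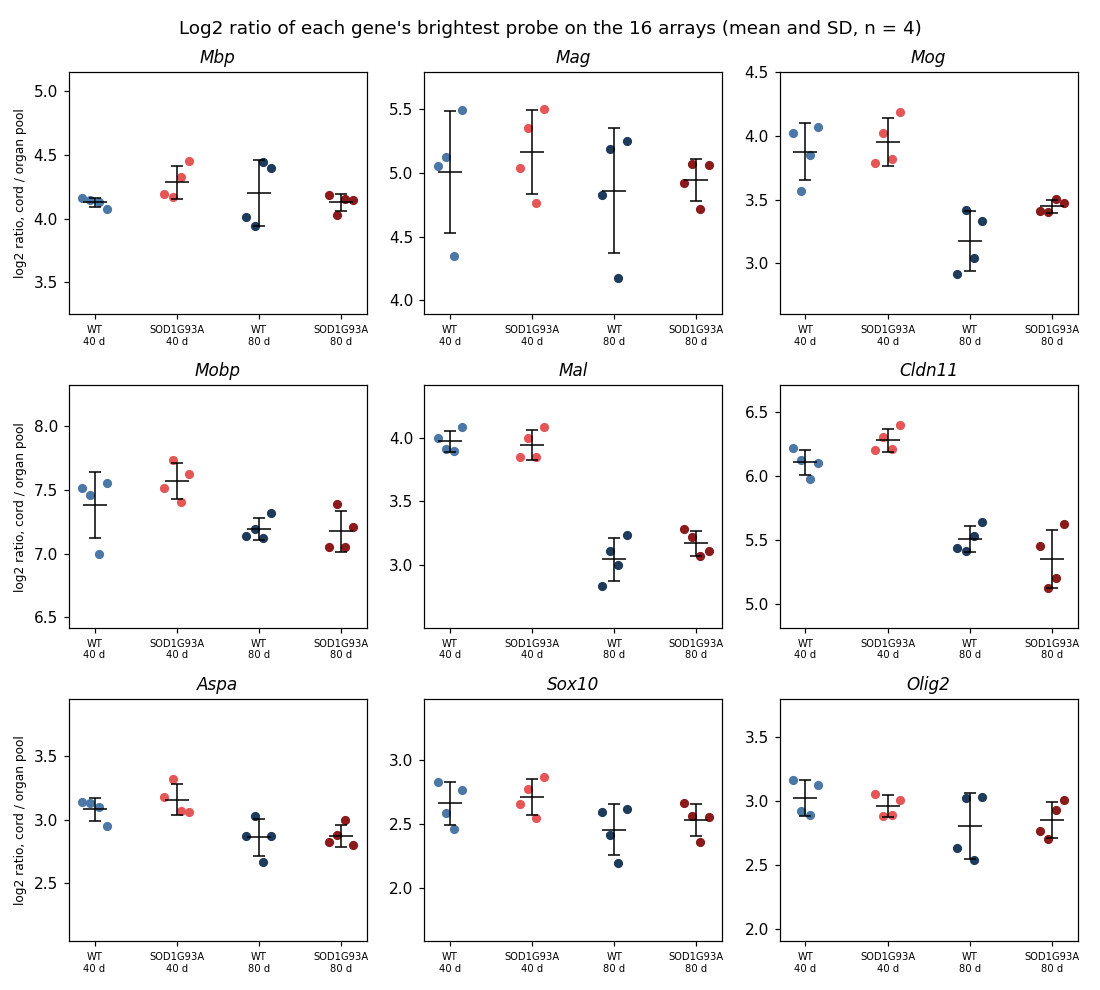
Log2 ratio of cord to organ pool (vertical axis, same span in every panel) for the brightest probe of each gene, with 1 point per array, the mean and the SD (n = 4) in the 4 groups of genotype and age. The *Mal*, *Cldn11* and *Mog* points of 80 days lie below all points of 40 days in both genotypes, while the *Mbp* and *Mag* points overlap between the ages.

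The largest differences among the 9 genes were between the ages. In wild-type cord, 4 of the 9 genes fell from 40 to 80 days and 0 rose at an unadjusted p under 0.05 in limma, a linear model fitted across all probes, and 8 of 9 changes were below 0 (median of the 9, -0.22). Over all probes tested, 8.4% fell by the same rule, and the median change of all 15340 genes was 0.017. At a p under 0.05 after Benjamini-Hochberg adjustment over all probes, *Mal*, *Cldn11* and *Mog* fell, against 1.34% of all probes. The groups did not overlap for these 3 genes, against 4.53% of all probes lower without overlap. In SOD1G93A cord, 5 of 9 fell and 0 rose, against 8.43% of all probes, and all 9 changes were below 0 (median -0.28, beside 0.010 over 15266 genes). *Mal* and *Cldn11* passed the adjusted threshold, against 0.916% of all probes. The groups did not overlap for *Mal*, *Cldn11*, *Mog*, *Mobp* and *Aspa*, against 6.37% of all probes. The age comparisons of the 2 genotypes share no arrays, but both were fitted with the spread of all 16. As the 9 genes were chosen with earlier results of these data known, their counts describe these arrays and are no independent evidence.

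*Mal* shared the smallest adjusted p of all probes in wild-type cord with other probes. Its log2 ratios in wild-type cord were 3.99, 3.91, 3.89 and 4.08 at 40 days and 2.84, 3.11, 3.00 and 3.23 at 80 days. In SOD1G93A cord they were 3.85, 4.00, 3.85 and 4.08 at 40 days and 3.28, 3.22, 3.07 and 3.11 at 80 days. All arrays of 80 days lay below all arrays of 40 days, in both genotypes. The change was -0.92 ± 0.083 (SE) in wild-type cord, or 1.9-fold lower (limma adjusted p = 8.5e-05, exact permutation p = 0.0286), and -0.77 ± 0.083 in SOD1G93A cord, or 1.71-fold lower (limma adjusted p = 0.00022, exact permutation p = 0.0286). The exact test relabels the arrays in all 70 ways, and this p is the smallest it can give. A second *Mal* probe, A_52_P562661, fell too, with changes of -0.58 and -0.57. In wild-type cord, the Cy3 signal of the first probe went from 2388 ± 436 (SD, n = 4) to 1124 ± 194 units. The Cy5 signal of the pool was 1600 ± 295 and 1454 ± 220 units there. At the second probe, mean Cy5 moved the same way as Cy3. In wild-type cord Cy3 went from 2248 to 1087 units and Cy5 from 2594 to 1914. In SOD1G93A cord Cy3 went from 2169 to 1170 units and Cy5 from 2733 to 1876.

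*Cldn11* shared the smallest adjusted p of all probes in SOD1G93A cord with other probes, some of which had a smaller unadjusted p. Its log2 ratios in wild-type cord were 6.22, 6.13, 5.98 and 6.10 at 40 days and 5.44, 5.41, 5.53 and 5.64 at 80 days. In SOD1G93A cord they were 6.20, 6.31, 6.21 and 6.40 at 40 days and 5.45, 5.12, 5.20 and 5.62 at 80 days. Again every array of 80 days was below every array of 40 days. The change was -0.60 ± 0.095 (SE) in wild-type cord, 1.52-fold lower (limma adjusted p = 0.0032), and -0.93 ± 0.095 in SOD1G93A cord, 1.9-fold lower (limma adjusted p = 0.00018). Since the groups did not overlap, *Cldn11* and *Mal* were bound to be lower at 80 days on 4 of 4 slides, so this count adds nothing. The within-slide differences of *Cldn11* were -0.45 to -0.78 in wild-type cord and -0.75 to -1.18 in SOD1G93A cord. Those of *Mal* were -0.80 to -1.16 and -0.57 to -0.97.

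*Mog* was at 4.02, 3.57, 3.85 and 4.07 in wild-type cord of 40 days and at 2.92, 3.41, 3.04 and 3.33 at 80 days. In SOD1G93A cord it was at 3.79, 4.02, 3.82 and 4.19 at 40 days and at 3.41, 3.40, 3.50 and 3.47 at 80 days. The 4 SOD1G93A arrays of 80 days were close together (SD 0.048), and the wild-type arrays of that age were spread below them and up to 3.41. The change with age was -0.70 ± 0.12 (SE) in wild-type cord (limma adjusted p = 0.0067, exact permutation p = 0.0286) and -0.51 ± 0.12 in SOD1G93A cord (unadjusted limma p = 0.00074, adjusted p = 0.055, exact permutation p = 0.0286). *Mog* had no overlap between the ages either, so it was bound to be lower at 80 days on 4 of 4 slides in both genotypes. Its signals were low in both channels: in wild-type cord the Cy3 mean was 411 units at 40 days and 214 at 80 days, and the Cy5 mean 161 and 106. The Cy5 signal moved the same way as the Cy3 signal, although the pool was 1 RNA, and with the processed signals of the scanner software the wild-type change of *Mog* was 0.29, a rise that passed the unadjusted threshold. In SOD1G93A cord it was then -0.14 and no longer passed. In the Cy3 channel alone it was -0.84 in wild-type and -0.60 in SOD1G93A cord. Without the reset of bright local backgrounds it was -0.41 and -0.29, and neither passed. Without normalization within arrays it was -0.30, which passed, in wild-type cord and -0.14, which did not, in SOD1G93A cord.

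*Aspa* had smaller values of change than these 3 genes. Its ratios ran from 2.95 to 3.14 in wild-type cord of 40 days and were 2.87, 3.03, 2.67 and 2.87 at 80 days, a change of -0.22 ± 0.079 (SE, unadjusted limma p = 0.0133, adjusted p = 0.19, exact permutation p = 0.057) with overlap between the groups. This call ended without replicate 3 of wild-type cord of 80 days. In SOD1G93A cord, ratios of 3.18, 3.32, 3.06 and 3.06 went to 2.82, 2.88, 2.99 and 2.80 without overlap, a change of -0.28 ± 0.079 (unadjusted limma p = 0.0025, adjusted p = 0.092, exact permutation p = 0.0286). The second *Aspa* probe fell too, with changes of -0.31 and -0.24. *Mobp* was at 7.52, 7.46, 7.00 and 7.55 in wild-type cord of 40 days and at 7.14, 7.19, 7.12 and 7.32 at 80 days, so 1 array of 40 days lay below all those of 80 days, and the change of -0.19 ± 0.11 (SE) did not pass the test (unadjusted limma p = 0.11, exact permutation p = 0.17). Without that array, replicate 3, it was -0.32 and passed, as did *Sox10* and *Olig2*, so that 7 of 9 genes fell in wild-type cord. In that fit, 3095 of 21460 probes were called either way. In SOD1G93A cord *Mobp* went from 7.51, 7.73, 7.40 and 7.62 to 7.05, 7.39, 7.05 and 7.20, a change of -0.39 ± 0.11 (unadjusted limma p = 0.0030, adjusted p = 0.098, exact permutation p = 0.0286). The other *Mobp* probes had changes of -0.11 and -0.071 in wild-type and -0.18 and -0.17 in SOD1G93A cord, none of which passed. At 1 of these, A_52_P267600, both channels fell in wild-type cord, Cy3 from 691 to 415 units and Cy5 from 1001 to 627. By contrast, the Cy5 mean of *Cldn11* in wild-type cord was 422.5 units at 40 days and 424.2 at 80 days.

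**Figure D2:**
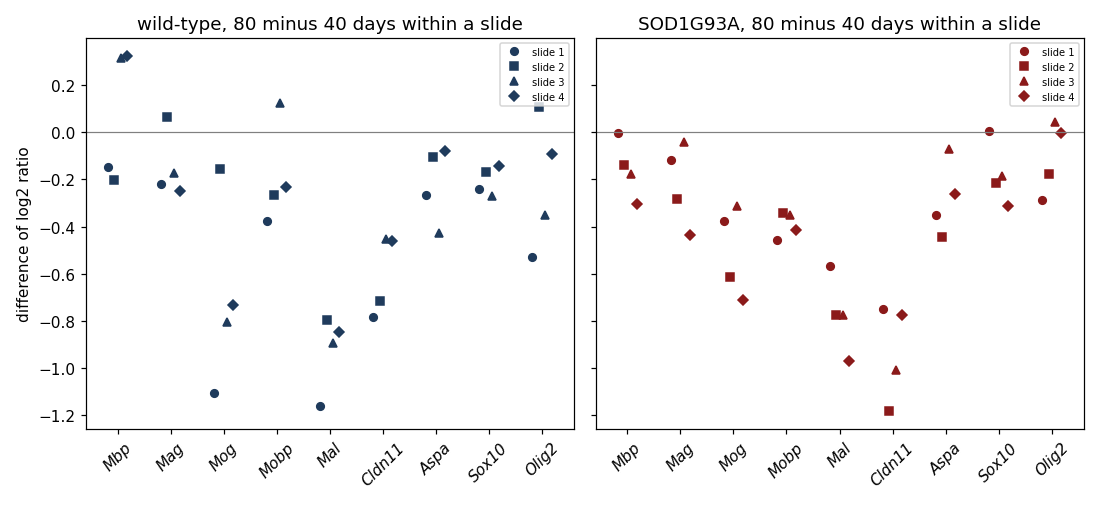
Difference of the log2 ratio between the 80-day and the 40-day array of the same slide (vertical axis) for the brightest probe of each gene, in wild-type (left) and SOD1G93A cord (right), with 1 symbol per slide. *Mal*, *Cldn11*, *Mog* and *Aspa* lie below 0 on 4 of 4 slides in both genotypes. For *Mal*, *Cldn11* and *Mog* this is bound to be so, since their age groups do not overlap. *Mbp* in wild-type cord lies above 0 on 2 slides and below 0 on 2.

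The remaining 4 genes passed the test with age in neither genotype by their brightest probe. *Mbp* changed by 0.072 ± 0.098 (SE) in wild-type and -0.16 ± 0.098 in SOD1G93A cord. Its wild-type arrays of 80 days were split, at 4.01, 3.94, 4.44 and 4.40, around values of 4.16, 4.15, 4.13 and 4.08 at 40 days. *Mbp* probe A_52_P329451 was not called in wild-type cord (-0.028). There its Cy3 mean went from 3248 to 1921 units and its Cy5 mean from 3500 to 2218. *Mbp* probe A_52_P604195, of the other transcript, was the only member probe that rose: in SOD1G93A cord it went from -0.28, -0.34, -0.32 and -0.17 to 0.05, -0.09, -0.08 and -0.12, a change of 0.22 ± 0.064 (unadjusted limma p = 0.0036, adjusted p = 0.11, exact permutation p = 0.0286), and in wild-type cord it had a change of 0.087. *Mag* varied most among arrays of 1 group, for example 5.05, 5.12, 4.35 and 5.49 in wild-type cord of 40 days, with changes of -0.14 ± 0.24 and -0.22 ± 0.24, and it was lowest on slide 3 in every group. Its second probe, with less spread, was not called in wild-type cord (-0.096) and fell in SOD1G93A cord, with a change of -0.25 (unadjusted limma p = 0.038, exact permutation p = 0.0286). *Sox10* had changes of -0.21 ± 0.10 and -0.18 ± 0.10 and *Olig2* of -0.22 ± 0.11 and -0.11 ± 0.11. The second *Sox10* probe fell in wild-type cord, with a change of -0.17 (unadjusted limma p = 0.030, adjusted p = 0.27, exact permutation p = 0.086). Its signals were very low there, with Cy3 means of 55.4 units at 40 days and 50 at 80 days. Its Cy5 signal was well above background on 0 of 16 arrays, so this change says little. On single slides, the brightest *Sox10* probe was lower at 80 days on 4 of 4 slides in wild-type and 3 of 4 in SOD1G93A cord. With the slide as a block in the fit, *Sox10* passed the unadjusted threshold in both genotypes and *Mobp* in wild-type cord.

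Other probes with a high ratio of cord to pool were looked at for the same change. Among 624 probes with a mean log2 ratio over 3, the 9 genes left out, the median change with age was 0.067 in wild-type and -0.026 in SOD1G93A cord, and 5.13% and 9.46% of them fell at an unadjusted p under 0.05. Among the 76 such probes over 5, the median was 0.054 in wild-type and -0.094 in SOD1G93A cord, and 5.26% and 14.5% of them fell. Medians of other cell type lists were 0.25 and 0.35 for microglia genes, of which 1 of 11 was called, *C1qb*, which rose in each genotype, and 0.10 and -0.038 for neuron genes. Astrocyte genes had medians of 0.11 and -0.092, with 2 of 10 called higher in wild-type cord and 1 higher and 2 lower in SOD1G93A cord. Endothelial genes had medians of -0.15 and -0.060. In wild-type cord all 7 of these were below 0 and *Kdr* and *Tek* were called, and in SOD1G93A cord 4 of 7 were below 0 and *Kdr* was called. The peripheral myelin genes had medians of -0.23 and 0.34, with 0 of 9 and 0 of 8 called.

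A list of 34 other oligodendrocyte and myelin genes, all tested, was counted in the same way. In wild-type cord 17 fell and 0 rose, with a median of -0.20 over the 34, and in SOD1G93A cord 16 fell and 1 rose, with a median of -0.21. The gene that rose was *Qdpr*, a pteridine reductase (0.18 ± 0.064 SE). At an adjusted p under 0.05, 8 fell in each, against 1.34% of all probes in wild-type and 0.916% in SOD1G93A cord. At the unadjusted threshold, 8.4% and 8.43% of all probes fell. The smallest p in wild-type cord was that of *Gsn*, gelsolin, an actin-severing protein that oligodendrocytes make in quantity, at -1.20 ± 0.14 (SE). It was followed by *Cers2*, a ceramide synthase of very long chains, at -0.45 ± 0.058, by *Tspan2*, a tetraspanin of the sheath, at -0.73 ± 0.11, and by *Gal3st1*, the sulfotransferase that makes sulfatide, at -0.64 ± 0.097. In SOD1G93A cord the smallest p was that of *Ugt8a*, which makes galactosylceramide, at -0.85 ± 0.10. *Gsn* followed at -1.14 ± 0.14, then *Enpp6*, a choline phosphodiesterase known from newly formed oligodendrocytes, at -0.92 ± 0.12, and *Fa2h*, the fatty acid 2-hydroxylase, at -0.71 ± 0.10. All 7 genes passed the adjusted threshold in both genotypes, and the enzymes among them include those of galactosylceramide and sulfatide synthesis. The list was drawn up with earlier results of these arrays known, so its count describes these arrays and is no independent evidence.

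**Figure D3:**
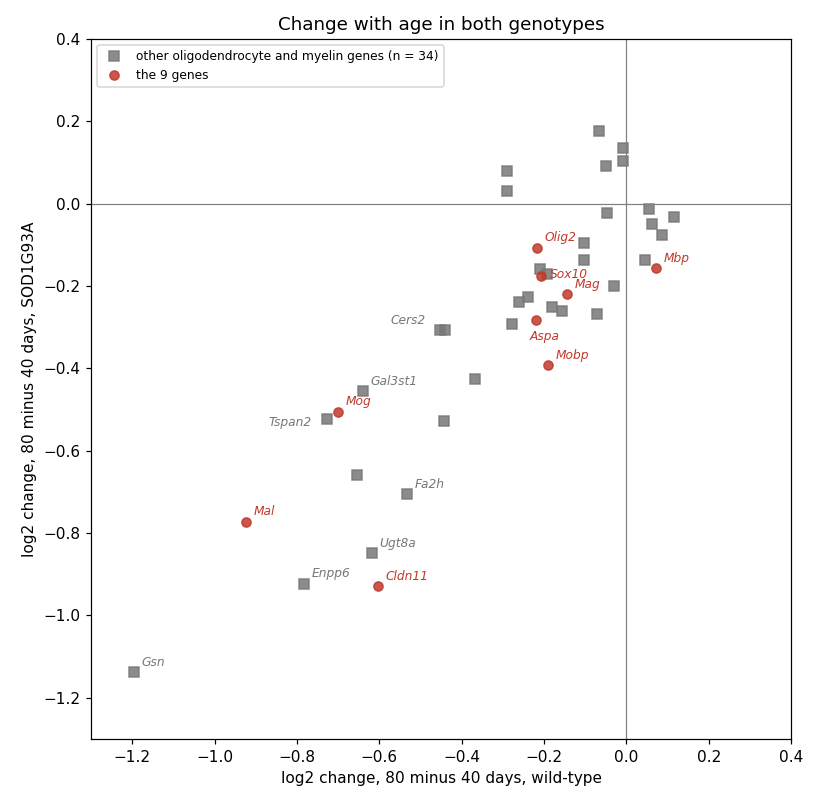
Log2 change from 40 to 80 days in wild-type cord (horizontal axis) against that in SOD1G93A cord (vertical axis) for the brightest probe of the 9 genes (circles) and of 34 other oligodendrocyte and myelin genes (squares). *Mal*, *Cldn11* and *Mog* lie at the lower left with *Gsn*, *Enpp6*, *Ugt8a*, *Fa2h*, *Tspan2* and *Gal3st1*, and *Mbp* lies near 0.

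Lineage factors, precursor genes and inhibitors of myelination were counted next. Of 10 tested transcription factors, 2 fell in wild-type cord, *Sox8* (-0.35 ± 0.11 SE) and *Tcf7l2* (-0.16 ± 0.062), and 4 in SOD1G93A cord, where *Zeb2* (-0.39 ± 0.10) and *Nkx2-2* (-0.38 ± 0.17) joined *Tcf7l2* (-0.23 ± 0.062) and *Sox8* (-0.40 ± 0.11). None passed the adjusted threshold. Over all probes, 8.4% fell in wild-type and 8.43% in SOD1G93A cord at the unadjusted threshold. Of the 10 factors, 5 were above 0 in wild-type cord (median -0.028) and 3 in SOD1G93A cord (median -0.080). Of the precursor genes, 4 of 10 fell in wild-type cord, *Cspg4*, which encodes NG2 (-0.30 ± 0.071), *Gpr17* (-0.27 ± 0.071), *Matn4* (-0.28 ± 0.094) and *Pdgfra* (-0.17 ± 0.063), and *Cspg4* alone passed the adjusted threshold. In SOD1G93A cord 2 of 11 fell, *Gpr17* (-0.29 ± 0.071) and *Lhfpl3* (-0.16 ± 0.072). The precursor genes above 0 were 0 of 10 in wild-type cord (median -0.15) and 4 of 11 in SOD1G93A cord (median -0.015). *Gpr17*, which marks cells about to differentiate and is also held by the list of inhibitors, was thus lower in both. Of the 9 tested inhibitors, *Gpr17* and *Sox6* (-0.22 ± 0.083) fell in wild-type cord, and these and *Id4* (-0.23 ± 0.092) in SOD1G93A cord. The inhibitors above 0 were 3 of 9 in wild-type cord (median -0.059) and 1 of 9 in SOD1G93A cord (median -0.11).

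Between the genotypes, differences were small at both ages. At 40 days, 2 of the 9 genes were higher in SOD1G93A cord and 0 lower at an unadjusted p under 0.05, against 2.44% of all probes higher, and 7 of 9 changes were above 0 (median 0.075). *Cldn11* differed by 0.17 ± 0.069 (SE, unadjusted limma p = 0.032, exact permutation p = 0.086). *Mbp* differed by 0.16 ± 0.069 (unadjusted limma p = 0.044, exact permutation p = 0.0286), from 4.16, 4.15, 4.13 and 4.08 in wild-type to 4.19, 4.17, 4.33 and 4.45 in SOD1G93A cord. These *Mbp* groups did not overlap, as in 1.55% of all probes, but their nearest arrays were close, at 4.16 and 4.17, and the other *Mbp* probes had changes of 0.10 and 0.0046. After adjustment, limma called 0 of 21336 probes (0%), beside 953 at an unadjusted p under 0.05, and the adjusted p of both genes was 0.998. The *Mbp* call was lost with the slide as a block. Leaving out single arrays gave *Mbp* changes of 0.10 to 0.20 and ended the call in 6 of 8 cases, without any 1 of the wild-type replicates or without SOD1G93A replicate 3 or 4. For *Cldn11* they gave changes of 0.13 to 0.21 and ended the call in 4 of 8, without wild-type replicate 3 or 4 or SOD1G93A replicate 2 or 4. Of 12 other ways of processing, 9 ended the call of *Mbp* and 6 that of *Cldn11*.

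Other values of the same arrays are given beside these differences. The 624 probes with a ratio over 3 had a median genotype difference of 0.066 at 40 days. Among the 76 with a ratio over 5 it was 0.091, and 10.5% of these were below 0. Of 10 astrocyte genes, 8 were above 0 (median 0.064) and 3 were called higher, *Gfap*, *Slc1a2* and *Slc1a3*. Of 13 neuron genes, 10 were above 0 (median 0.090) and 0 were called at an unadjusted p under 0.05. Of 9 peripheral myelin genes, 8 had a difference below 0, with a median of -0.70 and 1 called, *Drp2* (-0.47 ± 0.14 SE). The 7 genes of meningeal fibroblasts had a median of -0.69, with 0 called, and were all below 0. Schwann cells of nerve roots also make some of the 9 genes, *Mbp* and *Mag* among them, and the part of the roots in these values and in the changes with age was not tested. Of the 34 other oligodendrocyte and myelin genes, 28 were above 0 (median 0.081).

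At 80 days, *Mog* alone of the 9 was called. It was 0.27 ± 0.11 (SE) higher in SOD1G93A than in wild-type cord (unadjusted limma p = 0.028, exact permutation p = 0.086), against 3.74% of all probes higher, and after adjustment limma called 0 of 21601 probes (0%), beside 1481 at an unadjusted p under 0.05. It was higher on 3 of 4 slides, by 0.49, 0.46 and 0.14, and differed by -0.012 on slide 2. Its call ended in 4 of 8 fits that left out 1 array (changes of 0.18 to 0.35), without wild-type replicate 1 or 3 or SOD1G93A replicate 3 or 4, and with the processed signals the change was -0.27. The call ended too without the reset of bright local backgrounds (0.15), without normalization within arrays (0.10) and with array weights (0.18). Of the 3 arrays whose backgrounds were reset, SOD1G93A replicate 4 alone is of 80 days, so the fit without these is the fit without it (0.26). Without the reset and without that replicate, *Cldn11* passed the unadjusted threshold in place of *Mog*, with differences of -0.21 and -0.24. Of the 34 other genes, 23 had a difference above 0, 5 were higher at an unadjusted p under 0.05 and 0 were lower at it. The 5 included *Qdpr* (0.20 ± 0.062 SE), *Gsn* (0.28 ± 0.093), *Cnp* (0.24 ± 0.098) and *Anln* (0.29 ± 0.12). The median of the 34 was 0.042 and that of the 9 genes 0.045, beside -0.0039 over all genes.

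**Figure D4:**
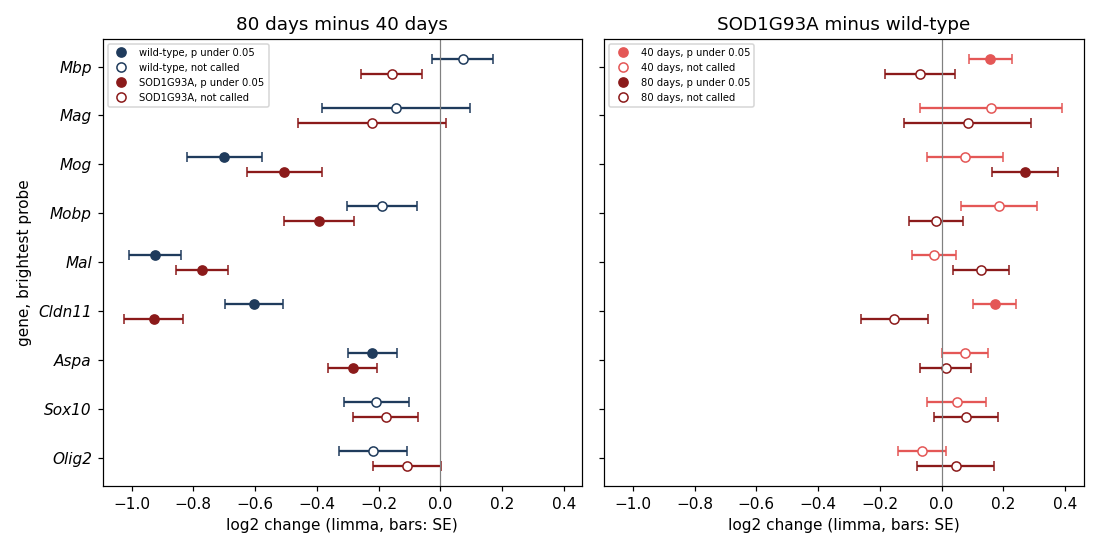
Log2 change of the brightest probe of each gene (horizontal axis, bars show the SE from limma) from 40 to 80 days in both genotypes (left) and between genotypes at both ages (right); filled points passed an unadjusted p under 0.05. Age changes reach -0.93 for *Cldn11* and -0.92 for *Mal*, and no genotype change is larger than the 0.27 of *Mog* at 80 days.

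For a change of the genotype difference between the ages, *Cldn11* alone of the 9 genes was called at an unadjusted p under 0.05. Of all probes, 6.68% were called either way by this rule, and after adjustment limma called 0 of 21951 probes. *Cldn11* was 0.17 higher in SOD1G93A cord at 40 days and had a difference of -0.15 ± 0.11 (SE) at 80 days, which did not pass (unadjusted limma p = 0.19, exact permutation p = 0.29) but did without SOD1G93A replicate 4 of 80 days (-0.24). The difference between these was -0.32 ± 0.13 (unadjusted limma p = 0.028, adjusted p = 0.71), with an exact permutation p of 0.040 over 4900 relabellings within the ages. By construction this is also the difference between its fall with age in the 2 genotypes. For the other 8 genes the difference between the ages ran from -0.23 (*Mbp*) to 0.19 (*Mog*), and none passed. The call for *Cldn11* ended in 5 of 16 fits that left out 1 array, with values of -0.25 to -0.42: without wild-type replicate 3 or SOD1G93A replicate 4 of 40 days, or without wild-type replicate 4 or SOD1G93A replicate 2 or 3 of 80 days. It ended too in the Cy3 channel alone (-0.24), without normalization within arrays (-0.055) and without the reset of bright local backgrounds (-0.34). On the same arrays, all 9 peripheral myelin genes had a difference above 0 (median 0.62, 1 called, *Drp2*). Of 10 astrocyte genes 2 were above 0 (median -0.074) and 3 were called lower, *Gfap*, *Slc1a2* and *Slc1a3*. Of 13 neuron genes 2 were above 0 (median -0.15) and 1 was called lower, *Syt1*. The 76 probes with a ratio over 5 had a median genotype difference of 0.091 at 40 days and -0.065 at 80 days. The part of these in the result was not tested.

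Among themselves, the genes followed each other to different degrees over the 16 arrays, with the age groups included. The Pearson r of a gene with the median profile of the others was 0.88 for *Mal*, 0.86 for *Cldn11*, 0.85 for *Mog*, 0.82 for *Mobp*, 0.79 for *Sox10*, 0.72 for *Aspa*, 0.58 for *Olig2*, 0.56 for *Mag* and 0.14 for *Mbp*. After subtraction of the group means, r was 0.79 for *Mag*, 0.72 for *Mal*, 0.62 for *Mog*, 0.61 for *Sox10* and 0.60 for *Mobp*. It was 0.52 for *Olig2*, 0.39 for *Cldn11*, 0.016 for *Aspa* and -0.086 for *Mbp*. On arrays of 40 days, 4 to 9 of the 9 genes were above their own mean over all arrays, and on arrays of 80 days 1 to 4. Among 15425 other genes, those most like the profile of the 9 were *Tmeff2* (r = 0.94), *Ugt8a* (0.93), *Npb* (0.93), *Fa2h* (0.93) and *Rab33a* (0.92), over arrays that share slides and the same reference RNA.

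**Figure D5:**
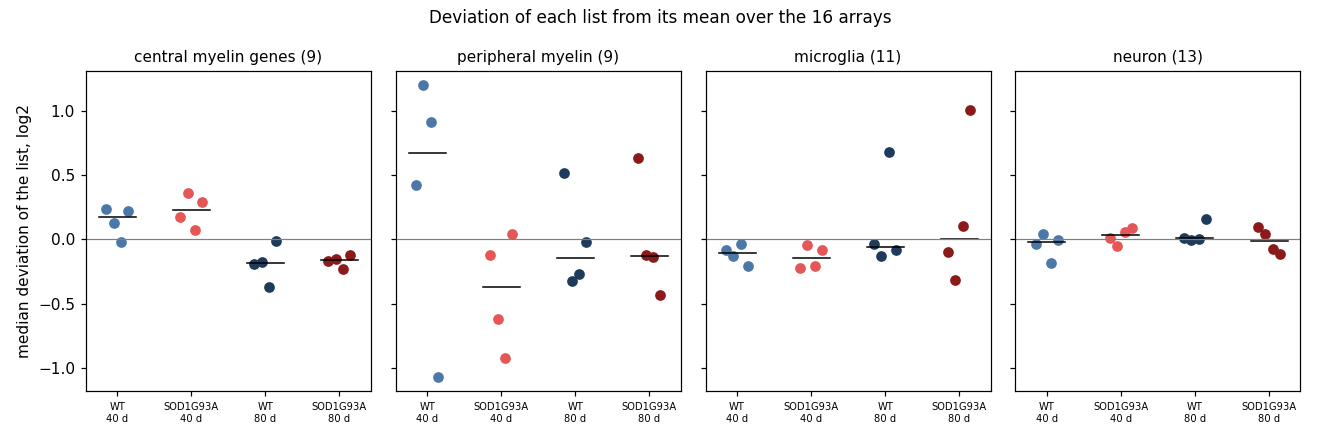
Median deviation of the genes of a list from their own means over the 16 arrays (vertical axis, log2), with 1 point per array and the group median as a line, for the 9 central myelin genes and for peripheral myelin, microglia and neuron genes. The 9 genes lie between -0.023 and 0.36 at 40 days and between -0.37 and -0.011 at 80 days, while peripheral myelin genes spread from -1.07 to 1.20 among wild-type arrays of 40 days.

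RefSeq promoter windows were matched for 7 of the 9 genes. Sequence of the 5 genes that fell in SOD1G93A cord is shown because these members fell in the same comparison. Each line gives the 250 bases before the transcript start from RefSeq (GRCm38.p6), in the direction of transcription: *Mal* chr2:127656696-127656945, minus strand, *Cldn11* chr3:31149670-31149919, plus strand, *Mog* chr17:37023399-37023648, minus strand, *Mobp* chr9:120149492-120149741, plus strand, and *Aspa* chr11:73324638-73324887, minus strand. Capitals mark, on either strand, the motifs AACAAT and ACAAAG that SOX factors bind and the E-box CAGCTG.
Mal: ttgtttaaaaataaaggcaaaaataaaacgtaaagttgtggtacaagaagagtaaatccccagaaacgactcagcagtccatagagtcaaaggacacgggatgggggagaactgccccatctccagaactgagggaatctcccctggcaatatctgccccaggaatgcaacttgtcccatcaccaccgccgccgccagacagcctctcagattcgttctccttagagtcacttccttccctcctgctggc
Cldn11: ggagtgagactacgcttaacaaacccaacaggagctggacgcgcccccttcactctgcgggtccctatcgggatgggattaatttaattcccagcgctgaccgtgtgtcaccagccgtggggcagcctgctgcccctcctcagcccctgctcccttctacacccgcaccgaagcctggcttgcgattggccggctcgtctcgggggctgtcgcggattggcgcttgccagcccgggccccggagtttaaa
Mog: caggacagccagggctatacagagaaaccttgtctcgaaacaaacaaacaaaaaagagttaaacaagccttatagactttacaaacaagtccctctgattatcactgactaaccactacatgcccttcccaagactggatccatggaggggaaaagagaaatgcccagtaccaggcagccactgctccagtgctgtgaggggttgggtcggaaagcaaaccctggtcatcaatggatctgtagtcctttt
Mobp: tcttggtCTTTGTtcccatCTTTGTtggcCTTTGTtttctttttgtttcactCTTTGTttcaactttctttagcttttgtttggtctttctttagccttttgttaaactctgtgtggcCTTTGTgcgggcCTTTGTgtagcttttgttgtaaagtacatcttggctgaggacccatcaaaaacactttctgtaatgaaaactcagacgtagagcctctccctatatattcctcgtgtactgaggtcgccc
Aspa: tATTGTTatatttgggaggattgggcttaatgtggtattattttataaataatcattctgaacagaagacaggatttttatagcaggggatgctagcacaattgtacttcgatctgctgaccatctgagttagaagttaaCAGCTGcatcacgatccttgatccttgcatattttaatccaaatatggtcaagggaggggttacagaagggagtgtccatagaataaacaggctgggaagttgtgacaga

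In the full windows, which run 50 bases further into the transcript, the *Mobp* promoter held ACAAAG 6 times and the *Aspa* promoter AACAAT 1 time and CAGCTG 1 time, while those of *Mal*, *Cldn11* and *Mog* held none of the 3. The *Olig2* window held AACAAT 1 time, and *Mag* windows held ACAAAG 0 or 1 time. Of 32851 promoter windows of this length, 10.7% held AACAAT, 18.7% ACAAAG and 16.3% CAGCTG. The general E-box CANNTG, which includes CAGCTG, was in 72.3% of windows, 4 times in that of *Aspa* and 0 times in those of *Mal*, *Cldn11*, *Mog* and *Mobp*. These matches describe the letters of the windows.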

How the data were processed

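The authors hybridised 2-colour Agilent mouse arrays and deposited the Feature Extraction 9.5.3.1 output (version per the labels) with spot intensity in both channels, and a series matrix of normalized log2 values, which served as an alternative. The members and gene lists were chosen with earlier results of these data known. From the deposited median signals, local backgrounds that exceeded their spot's signal by over 20 units were reset to the array median (on 3 arrays). Background was then corrected with normexp (offset 50), arrays were normalized by loess within and Aquantile between them, control and outlier spots were left out, and spots of a probe were averaged (limma 3.58.1, R 4.3.3). A probe was tested with limma if Cy3 stood well above background on 3 or more of 4 arrays in 1 group and every group had 2 or more usable arrays: genotype within an age on 8 arrays, age and the difference between ages on 16. As in the study's methods, an unadjusted p under 0.05 was the call, and Benjamini-Hochberg values over all probes stand beside it. Named beyond the 9 genes were the 4 with the smallest p of the other oligodendrocyte list, called members of short lists and the 5 genes most like the 9. The tests were checked on simulated data. Cy3 was well above background at 46.1 to 55.3% of probes per array, and 4 arrays a group set how small a change can be seen. Alternatives covered background, normalization, filter, slide block, array weights and single arrays left out. Columns of 0 other samples were present. Some single-gene results of the other oligodendrocyte list are not reported here.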

Additional observations from a re-analysis of the deposited data

Results flagged for a closer look

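The *Mobp* probe A_52_P384465 on replicate 3 of wild-type cord of 40 days had a log2 ratio of 7.00, with the nearest array of its group at 7.46. This gap was 0.836 of the group's range, over the critical value for 4 arrays in Dixon's test. It was the only one of 68 groups of 4 arrays (17 probes in 4 groups) past that value, and chance puts about 1 in 20 groups past it.

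The genotype difference of *Cldn11* changed between 40 and 80 days by -0.325 on the log2 scale (limma adjusted p = 0.71, exact permutation p = 0.040). The difference itself was tested as an interaction, and it passed the unadjusted threshold.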

How the results depend on the processing

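*Mal* and *Cldn11* fell with age in both genotypes at an unadjusted p under 0.05 in all 11 alternatives and all 8 fits without 1 array. In SOD1G93A cord, *Mog*, *Mobp* and *Aspa* were each called in 8 of 11 alternatives and in 8 of 8 fits without 1 array. At 40 days, the count of called genes was 2 as reported, and 0 without the reset of bright backgrounds, with the processed signals, without normalization within arrays, with array weights, with all 16 arrays in the fit, or without the 3 arrays with reset backgrounds (an alternative chosen after seeing the data). It was 1 with the authors' series matrix. Without single arrays it was 0 to 2. At 80 days the count of 1 became 0 with the processed signals or array weights and 2 in the Cy3 channel alone or the series matrix, and 0 to 1 without single arrays. It stayed 1 without the reset, without normalization within arrays and without the 3 arrays, but the gene called was not *Mog* (0.15, 0.10 and 0.26). At this age the last of these is the fit without SOD1G93A replicate 4. For the difference between the ages, the count of 1 became 0 without the reset and 2 without background subtraction or with the processed signals, and 0 to 2 without single arrays. With age in wild-type cord, the count of 4 became 2 without the reset, 7 without background subtraction, 8 in Cy3 alone and 7 without the 3 arrays, and 3 to 7 without single arrays. In SOD1G93A cord, the count of 5 became 2 without the reset or without normalization within arrays, and stayed 5 without single arrays. The cause was not tested. Changes that reversed were as follows. Without normalization within arrays, *Mbp* was -0.0085 between genotypes at 40 days and -0.075 with age in wild-type cord. With the processed signals, *Mog* was -0.27 between genotypes at 80 days and 0.29 with age in wild-type cord, and *Mobp* was 0.089 there. Without the reset, wild-type changes with age were 0.085 for *Mobp* and 0.062 for *Olig2*, and the SOD1G93A change of *Olig2* was 0.16. In Cy3 alone, *Mbp* was -0.023 in wild-type and 0.0064 in SOD1G93A cord, and *Olig2* 0.057 in SOD1G93A cord. With array weights *Mag* was 0.066 with age in wild-type cord. Without single arrays, the wild-type changes ran from -0.36 to 0.083 for *Mag* and from -0.0089 to 0.16 for *Mbp*. Of 22 further changes that did not pass, 19 changed sign in at least 1 of 488 fits (70 fits in all) and 8 fits passed. With the replicate block (slide), the count was 1 at 40 days, since *Mbp* no longer passed, and 6 with age in each genotype. Pairing by number was checked between the genotypes within an age, on deviations from the group means over 17590 probes. Same-numbered arrays of 40 days correlated at -0.065 to 0.099 and those of 80 days at -0.0066 to 0.19. The highest r with an array of another number was -0.018 to 0.085 at 40 days and 0.10 to 0.25 at 80 days. Same-numbered arrays were thus mostly not the most alike between genotypes, and pairs of 80 and 40 days were not checked.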
